A study of Drosophila melanogaster with 12 samples.

Results

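Gypsy superfamily elements are LTR retrotransposons, and 81 rows of the deposited transposon tables were described here. A row belonged to the set when its name gave Gypsy as the superfamily and LTR as the class, and rows named gypsy, ZAM, Idefix, gtwin or Tabor were left out of the set and used for comparison. A mean of at least 10 counts over the 8 libraries was required. All 81 rows passed it, out of 203 elements of any kind that were tested and 215 in the table, so that no member was lost to the minimum. Of the members, 39 were internal parts, 41 were LTRs, and DM412 carried no part in its name. Both parts were present for 35 families.

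ChIP-seq was performed with antibodies against histone H3 and against H3 acetylated at lysine 23 (H3K23ac) on Drosophila melanogaster ovaries, with 2 replicates of each antibody in each knockdown. All flies carried tj-GAL4 over a wild-type chromosome (tj-GAL4/+). They also carried the germline driver P{w[+mC]=GAL4::VP16-nos.UTR}, inserted at CG6325[MVD1], over an RNAi construct, which was P{TRiP.HMS02634}attP2 in enok_KD and P{VALIUM20-EGFP.shRNA.1}attP2 in GFP_KD. Females were 2 to 3 days old, and RNAi ran at 29 °C for 2 to 3 days. Both groups therefore shared the somatic tj driver and the germline nos driver, and each library came from pooled whole ovaries, in which germline and somatic follicle cells cannot be told apart. A knockdown may leave some enok product, and enok RNA was not measured in these libraries. The 4 input libraries were not analysed here.

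A Gypsy element has a long internal part with gag and pol, which encode the particle proteins and the protease, reverse transcriptase and integrase, and some families also have an envelope gene like that of retroviruses. A direct repeat at each end, the LTR, carries the promoter and the signal for polyadenylation. In the fly ovary these elements are silenced by piRNAs, which guide Piwi proteins against their transcripts and against the chromatin of their copies. Enok is a lysine acetyltransferase of the KAT6 type that acetylates H3K23, a mark associated with active chromatin.

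Total counts on transposon elements were 411139 to 628808 for H3 and 199303 to 370429 for H3K23ac, and the mean count of a member ranged from 20 for Invader5_LTR to 7229 for NOMAD_I. Only reads with a unique genomic position were kept by the authors, so a family whose copies are identical is seen through the copies that differ, and an element count cannot be assigned to a copy or position. Levels are given as CPM, that is, counts per 1e+06 reads on the tested elements after TMM scaling. This scaling sets a trimmed mean over the elements, here called the typical element, near no difference. The median of all elements can lie off that zero, at 0.13 for the change in H3K23ac and 0.14 for the ratio of H3K23ac to H3 in GFP_KD. Levels were compared between libraries and not between elements, whose lengths were not given. Members took 23.6 ± 1.21% of the H3 reads in enok_KD and 24.4 ± 0.155% in GFP_KD, and 22.7 ± 0.766% of the H3K23ac reads in enok_KD and 22.8 ± 0.275% in GFP_KD (SD, n = 2). The shares of the enok_KD and GFP_KD libraries overlapped for both antibodies, and 2 against 2 libraries cannot go below p = 0.333 in an exact two-sided permutation test, so that no difference could be tested (p = 0.667 for H3 and p = 1 for H3K23ac). The enok_KD replicates lay further apart than the GFP_KD replicates. Between replicates, the median member differed on the log2 scale by 0.277 in H3 and 0.315 in H3K23ac of enok_KD, and by 0.106 in H3 and 0.0877 in H3K23ac of GFP_KD.

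The first comparison asked how much H3K23ac each element carried per H3 within a knockdown. The members covered a wide range in enok_KD, from ROVER-I_DM, the internal part of the envelope-carrying family rover, at a log2 ratio of H3K23ac to H3 of −2.69 ± 0.19 (SE), to TRANSPAC_LTR at 2.03 ± 0.16. In GFP_KD they ranged from Gypsy8_I at −2.23 ± 0.25 to TRANSPAC_I at 1.65 ± 0.25. By edgeR's quasi-likelihood test with Benjamini-Hochberg adjustment over all 203 elements, 47 of 81 members passed in enok_KD, 22 with a higher and 25 with a lower ratio than the typical element, as compared with 60.1% of all elements (32% higher and 28.1% lower). In GFP_KD 54 of 81 passed, 26 higher and 28 lower, as compared with 68.5% of all elements (36% higher and 32.5% lower). The median log2 ratio of the members was −0.07 in enok_KD and −0.11 in GFP_KD, against 0.04 and 0.14 over all elements tested.

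The zero of this ratio is set by the scaling. With factors taken from the piRNA cluster tables of the same libraries, 48 members passed as higher and 7 as lower in enok_KD, and 47 as higher and 12 as lower in GFP_KD. Over all elements 146 of 203 passed in enok_KD and 154 of 203 in GFP_KD under these factors. The median of all elements moved up by 0.76 in enok_KD and 0.79 in GFP_KD, and 30 and 24 members changed sign. Higher and lower in the following therefore mean relative to the typical transposon element, and the order of the elements within a knockdown is what the counts give.

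No member passed as higher in a knockdown and as lower in the other, and 70 of 81 had the same sign in both. There were 20 members higher in both, 22 lower in both, 5 that passed in enok_KD alone, 12 in GFP_KD alone and 22 in neither. Whether members that passed in a single knockdown differ between the knockdowns is given by the comparison of ratios below. Across the 81 elements, which share libraries and are not replicates, the ratio in enok_KD followed that in GFP_KD with a Pearson r of 0.896 (Spearman 0.887), and r was 0.900 over the other 122 elements.

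**Figure D1:**
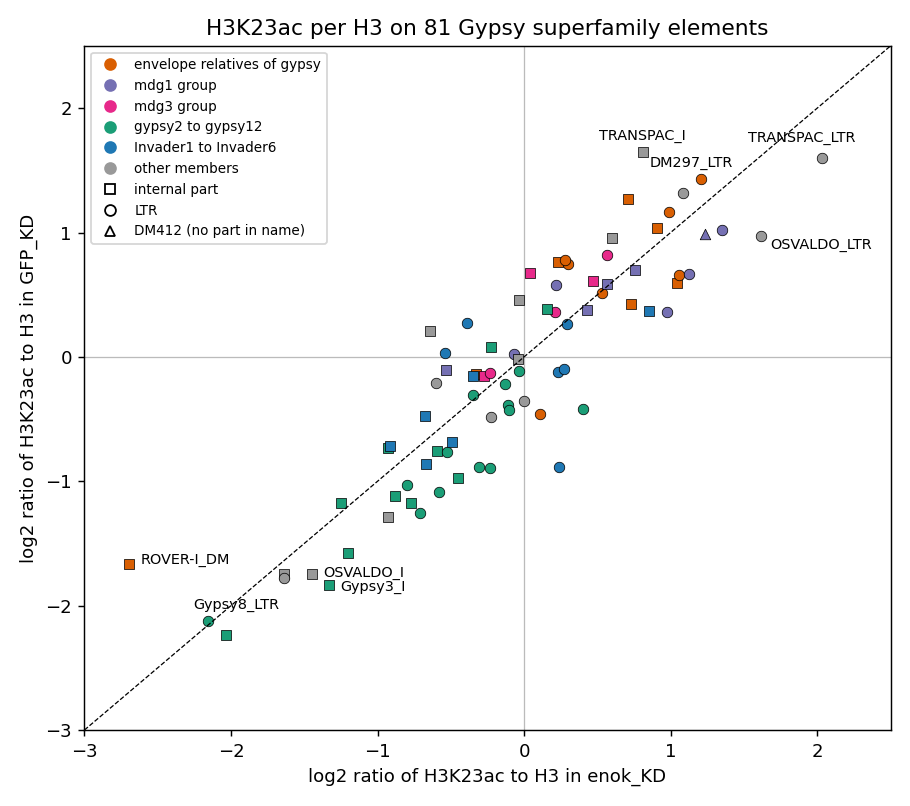
Fitted log2 ratio of H3K23ac to H3 on each of the 81 members in enok_KD (horizontal axis) and in GFP_KD (vertical axis). Each point is 1 element, squares are internal parts, circles are LTRs and the triangle is DM412, colors give the family groups and the dashed line marks equal ratios. Gypsy8, gypsy3 and OSVALDO_I lie low and TRANSPAC and DM297 lie high in both knockdowns, and ROVER-I_DM lies left of the line.

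The relatives numbered gypsy2 to gypsy12 carried little H3K23ac per H3. Of their 24 elements 13 were lower and 0 higher in enok_KD (median −0.55), against 28.1% lower and 32% higher over all elements. In GFP_KD 16 were lower and 0 higher (median −0.89), against 32.5% and 36% over all elements. With the cluster-table factors 7 of the 24 were higher and 3 lower in enok_KD (median 0.20), and 4 higher and 7 lower in GFP_KD (median −0.10). Gypsy8_I had 4017 and 2326 CPM of H3K23ac, against 14745 and 11072 CPM of H3, in enok_KD, and 2161 and 2126 CPM of H3K23ac, against 9884 and 10271 CPM of H3, in GFP_KD. Every H3K23ac library lay below every H3 library in both knockdowns, with log2 ratios of −2.03 ± 0.25 in enok_KD (edgeR adjusted p = 0.000197) and −2.23 ± 0.25 in GFP_KD (edgeR adjusted p = 0.000106). Its LTR behaved alike, at −2.15 ± 0.22 in enok_KD and −2.13 ± 0.22 in GFP_KD. Gypsy3_I was at −1.33 ± 0.17 in enok_KD and −1.84 ± 0.17 in GFP_KD.

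Relatives of gypsy known for an envelope gene (DM297, DM176, Tirant, nomad, Quasimodo, rover and Tom) mostly lay on the other side. Of 14 elements 7 were higher and 1 lower in enok_KD (median 0.62), and 10 were higher and 2 lower in GFP_KD (median 0.70). Over all elements 32% were higher in enok_KD and 36% in GFP_KD. The 11 left-out rows of gypsy itself, ZAM, Idefix, gtwin and Tabor were mixed. Of these, 1 was higher and 4 were lower in enok_KD (median −0.04), and 0 were higher and 4 lower in GFP_KD (median −0.36). The 4 lower rows were both parts of gypsy and gtwin in each knockdown. They lay at −0.38 to −0.67 in enok_KD and −0.88 to −1.36 in GFP_KD. The shift with the cluster-table factors (0.76 and 0.79) exceeds their distance from 0 in enok_KD only. In GFP_KD 5 of the 11 lay above 0 without passing, among them IDEFIX_LTR (0.68), IDEFIX_I (0.61) and TABOR_I (0.40). A high ratio was thus not shared by gypsy and its relatives as a whole. DM297_LTR had 2750 and 3803 CPM of H3K23ac, against 1364 and 1477 CPM of H3, in enok_KD, and 2928 and 3308 CPM of H3K23ac, against 1213 and 1106 CPM of H3, in GFP_KD. All H3K23ac values exceeded all H3 values in each knockdown, and the log2 ratio was 1.21 ± 0.17 in enok_KD (edgeR adjusted p = 0.000447) and 1.43 ± 0.17 in GFP_KD (edgeR adjusted p = 0.000161). The single member of the group that was lower in enok_KD was ROVER-I_DM. It had 3956 and 4896 CPM of H3K23ac, against 24779 and 32540 CPM of H3, in enok_KD, and 4161 and 4393 CPM of H3K23ac, against 14640 and 12512 CPM of H3, in GFP_KD. H3K23ac was below H3 in every library of both knockdowns, with a log2 ratio of −1.67 ± 0.18 in GFP_KD.

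The mdg1 group (mdg1, DM412, blood, Stalker2 and Stalker4), which lacks an envelope gene in its typical members, was also mostly higher. Of 10 elements 7 were higher and 1 lower in enok_KD (median 0.66), and 7 were higher and 0 lower in GFP_KD (median 0.58). The lower element was STALKER4_I, at −0.53 ± 0.20 in enok_KD, which was not lower with the cluster-table factors. DM412 had 22347 and 24880 CPM of H3K23ac, against 9437 and 10607 CPM of H3, in enok_KD, and 15482 and 16418 CPM of H3K23ac, against 8222 and 7837 CPM of H3, in GFP_KD. The groups did not overlap, and the log2 ratio was 1.24 ± 0.13 in enok_KD (edgeR adjusted p = 0.000125) and 0.99 ± 0.13 in GFP_KD (edgeR adjusted p = 0.000241). In the mdg3 group (mdg3, blastopia and micropia) 2 of 6 were higher in enok_KD (median 0.12) and 3 of 6 in GFP_KD (median 0.48), and 0 were lower in either. Over all elements 32% were higher in enok_KD and 36% in GFP_KD. The mdg3 counts lie near these shares and the mdg1 counts above them. BLASTOPIA_I and MDG3_LTR were higher in both knockdowns, and MDG3_I in GFP_KD, at 0.67 and at 0.04 in enok_KD. With the cluster-table factors all 6 were higher in each knockdown.

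Among Invader1 to Invader6, 5 of 12 elements were lower in each knockdown, and 1 was higher in enok_KD and 0 in GFP_KD (median −0.37 in enok_KD and −0.14 in GFP_KD). Over all elements 28.1% were lower in enok_KD and 32.5% in GFP_KD, so that 5 of 12 is not far from these shares. With the cluster-table factors 0 of the 12 were lower, 6 were higher in enok_KD and 7 in GFP_KD. The element that was higher was Invader5_I, at 0.86 ± 0.18 in enok_KD and 0.37 ± 0.17 in GFP_KD (edgeR adjusted p = 0.00336 and 0.0712). Families first described in other Drosophila species (Osvaldo, Ulysses, Tv1 and Tom) had 1 of 5 elements higher and 2 lower in each knockdown. On 5 elements these counts cannot be told from the shares over all elements. Ulysses_I was lower at −1.64 ± 0.23 in enok_KD and −1.75 ± 0.22 in GFP_KD. OSVALDO_I, at −1.45 ± 0.26 in enok_KD and −1.75 ± 0.25 in GFP_KD, was lower as well, whereas OSVALDO_LTR was higher at 1.62 ± 0.27 in enok_KD and 0.97 ± 0.25 in GFP_KD, although on a mean of only 29.1 counts per library. Both internal parts remained lower with the cluster-table factors.

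The main comparison asked whether H3K23ac per H3 differed in enok_KD as compared with GFP_KD, that is, the difference of the log2 ratios. No member passed (0 of 81) in edgeR's quasi-likelihood test, and the share over all elements was 0%. The lowest adjusted p over the table was 0.129. At an unadjusted p under 0.05 there were 11 members, 7 with a higher and 4 with a lower ratio in enok_KD, as compared with 14.3% of all elements. DESeq2 and limma voom each called 1 member, ROVER-I_DM, among 5 of 203 elements each. The median change of the members was 0.05, equal to the 0.05 over all elements tested. In 34 of 81 members (42%) the enok_KD and GFP_KD ratios did not overlap when every H3K23ac library was set over every H3 library of its knockdown, 22 higher and 12 lower, as compared with 34.5% of all elements (23.2% higher and 11.3% lower). For 66 members the 95% interval of the change lay above −1, so that a loss of more than a factor of 2 relative to the typical element was outside the interval, and for 50 it lay within −1 and 1. Without enok_KD H3K23ac replicate 2, 7 members passed, 2 higher and 5 lower, among 22 of 203 elements. Fits that pair libraries by replicate number, a pairing the labels do not state, changed the count. With a replicate block within each knockdown 26 of 81 members passed, 16 higher and 10 lower, among 65 of 203 elements, and with a block shared by all groups 0 of 203 elements did.

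**Figure D2:**
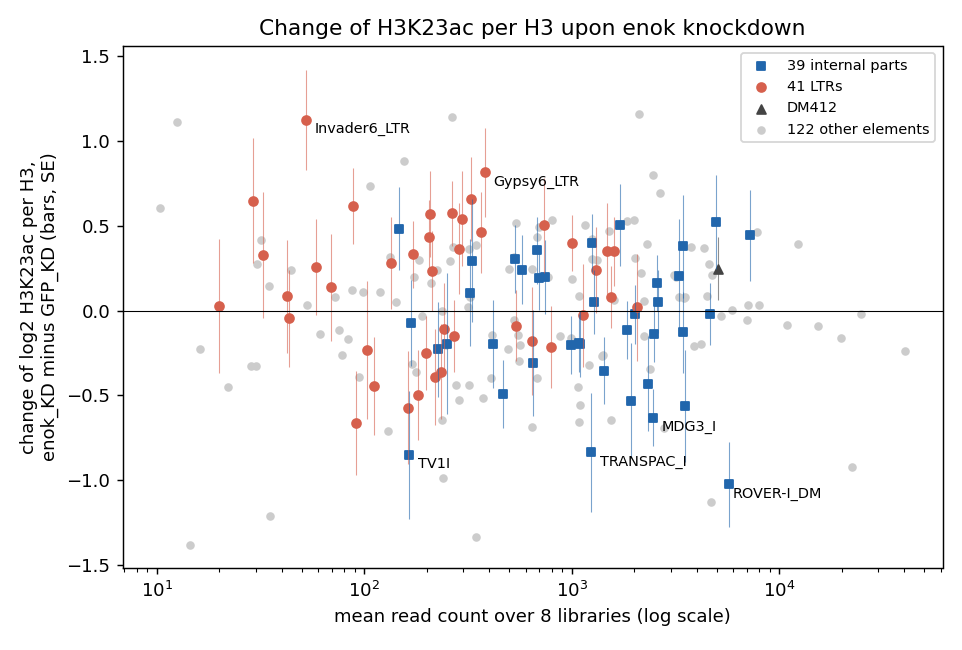
Change in log2 H3K23ac per H3, enok_KD minus GFP_KD, against the mean count of each element on a log axis, with internal parts as squares, LTRs as circles, DM412 as a triangle, bars for the SE of the members and the other tested elements in gray. The members lie around the zero line over the whole range of counts, with ROVER-I_DM the lowest member at −1.03 and Invader6_LTR the highest at 1.13.

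The 4 members with an unadjusted p under 0.05 on the lower side, ROVER-I_DM, MDG3_I, TRANSPAC_I and ACCORD_I, were all internal parts. In either direction 5 of 39 internal parts (12.8%) and 6 of 41 LTRs (14.6%) were under 0.05. Both shares are close to the 14.3% of all elements, and none of these members passed after adjustment. For ROVER-I_DM the change was −1.03 ± 0.25, where H3K23ac per library overlapped between the knockdowns and H3 did not, as given above. Its adjusted p was 0.129 with edgeR, 0.0197 with DESeq2 and 0.0457 with limma voom, and it ranged from 0.0197 to 0.602 over 15 alternatives without a replicate block. MDG3_I, the internal part of the mdg3 family, had 6317 and 6917 CPM of H3K23ac in enok_KD, against 7646 and 7672 CPM in GFP_KD, and 6506 and 6379 CPM of H3 in enok_KD, against 4734 and 4886 CPM in GFP_KD. H3K23ac was lower and H3 higher in both enok_KD libraries, and the fitted change was −0.63 ± 0.17. TRANSPAC_I, the internal part of Transpac, had 3778 and 6147 CPM of H3K23ac in enok_KD, against 4461 and 5071 CPM in GFP_KD, and 2355 and 3322 CPM of H3 in enok_KD, against 1679 and 1366 CPM in GFP_KD. The H3K23ac values of the enok_KD libraries lay on either side of those of GFP_KD, H3 did not overlap, and the fitted change was −0.84 ± 0.35. With the block within each knockdown the edgeR adjusted p was 1.61e-13 for ROVER-I_DM, 1.08e-05 for MDG3_I and 1.79e-08 for TRANSPAC_I. That fit leaves few residual degrees of freedom and assumes a pairing that the labels do not state. Deviations of same-numbered H3 and H3K23ac libraries correlated in enok_KD (0.697) but not in GFP_KD (−0.0128). These p-values are therefore no measure of how firm the changes are, and none of the named elements passed in the main fit. TV1I, the internal part of Tv1, had a change of −0.85 ± 0.38 with an unadjusted p of 0.0515, and its enok_KD H3K23ac values of 244 and 492 CPM enclosed the 352 and 383 CPM of GFP_KD.

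On the higher side 6 of the 7 were LTRs (Gypsy2_LTR, Gypsy4_LTR, Gypsy6_LTR, Invader6_LTR, DM412B_LTR and QUASIMODO_LTR), and Gypsy12_I was an internal part. Gypsy6_LTR had 1245 and 838 CPM of H3K23ac in enok_KD, against 827 and 799 CPM in GFP_KD, and 825 and 737 CPM of H3 in enok_KD, against 1058 and 1111 CPM in GFP_KD. H3K23ac was higher and H3 lower in each enok_KD library, with replicate 1 far above replicate 2 for H3K23ac, and the fitted change was 0.82 ± 0.26. Gypsy4_LTR (0.66) and Gypsy2_LTR (0.57 ± 0.19) had H3K23ac higher and H3 lower in both enok_KD libraries. For Gypsy2_LTR these were 567 and 554 CPM of H3K23ac in enok_KD, against 432 and 413 CPM in GFP_KD, and 735 and 651 CPM of H3 in enok_KD, against 795 and 763 CPM in GFP_KD. Invader6_LTR, with a mean of 52 counts, had 161 and 126 CPM of H3K23ac in enok_KD, against 82.7 and 85.2 CPM in GFP_KD, and a change of 1.13 ± 0.29. Its H3 values of 130 and 109 CPM in enok_KD lay below the 142 and 168 CPM of GFP_KD. TIRANT_LTR, from the envelope-carrying family Tirant, had 683 and 496 CPM of H3K23ac in enok_KD, against 388 and 383 CPM in GFP_KD, while its H3 values overlapped at 536 and 544 CPM in enok_KD and 482 and 579 CPM in GFP_KD, and its change of 0.57 was not among the 7.

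**Figure D3:**
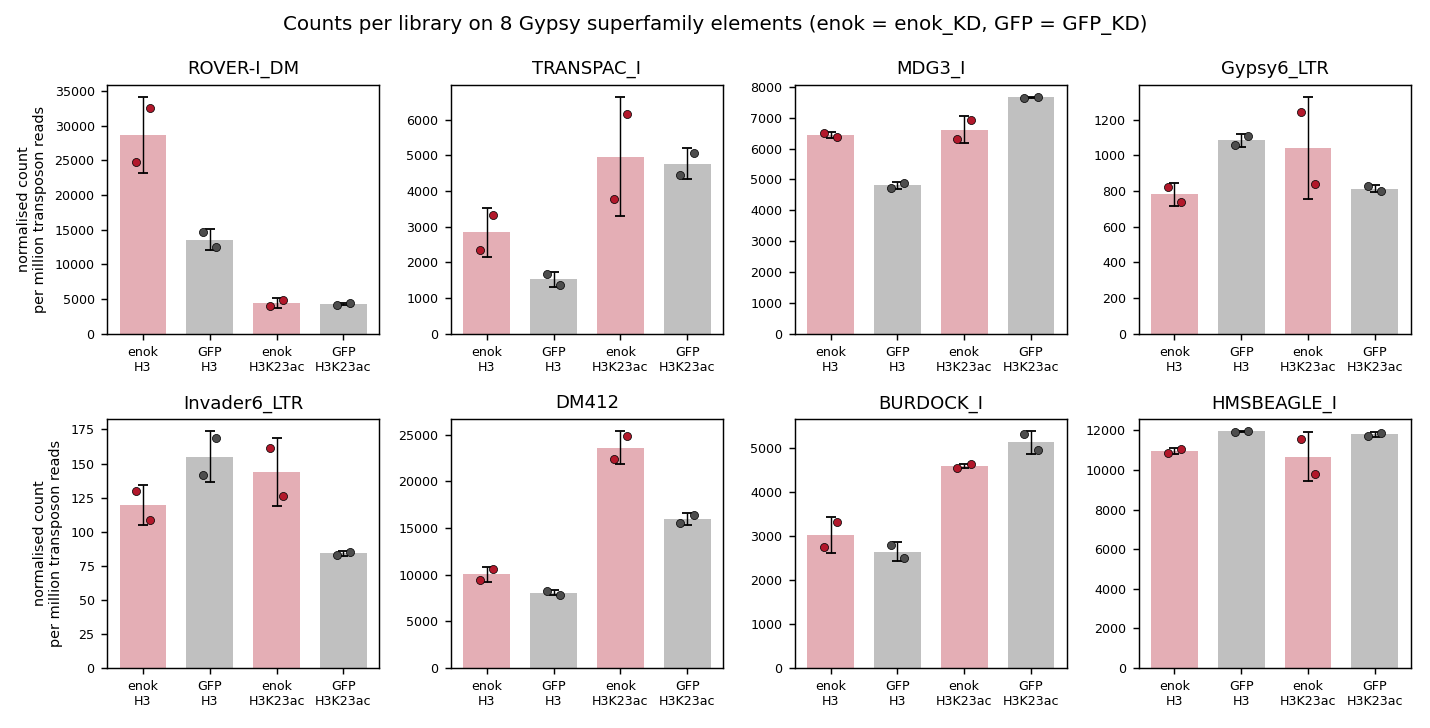
CPM of H3 and H3K23ac in each library for ROVER-I_DM, TRANSPAC_I, MDG3_I, Gypsy6_LTR, Invader6_LTR, DM412, BURDOCK_I and HMSBEAGLE_I, with enok_KD left of GFP_KD for each antibody. Bars are means, error bars the SD (n = 2) and points the libraries, and the axes start at 0. ROVER-I_DM had more H3 in enok_KD with overlapping H3K23ac, and Invader6_LTR had more H3K23ac in enok_KD.

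By family group, the median change was 0.24 for gypsy2 to gypsy12, with 18 of 24 elements above 0. Of these 24, 4 (16.7%) had an unadjusted p under 0.05, all higher, as compared with 14.3% of all elements. The median was −0.19 for the envelope relatives, 0.05 for the mdg1 group, −0.14 for the mdg3 group (0 of 6 above 0), 0.11 for Invader1 to Invader6 and 0.10 for the families of other species. Without enok_KD H3K23ac replicate 2 the medians were 0.42 for gypsy2 to gypsy12 and −0.53 for the envelope relatives, and without enok_KD H3K23ac replicate 1 they were 0.09 and 0.02. By part, the 39 internal parts had a median of −0.07, with 8 not overlapping on the higher and 10 on the lower side (46.2%). The 41 LTRs had a median of 0.23, with 13 on the higher and 2 on the lower side (36.6%). Of all elements 34.5% did not overlap, 23.2% on the higher and 11.3% on the lower side. The difference between parts was tested within families, as given below.

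H3 alone was compared because a change in H3 also moves the ratio. A single member passed (1 of 81), as compared with 2.46% of all elements. This was ROVER-I_DM, which rose by 1.08 ± 0.18 on the log2 scale in enok_KD (edgeR adjusted p = 0.0340), with both enok_KD libraries above both GFP_KD libraries. That call was lost with a mean of at least 100 counts (0.99, adjusted p = 0.0624), and on leaving out enok_KD H3 replicate 2 (0.79, adjusted p = 0.186), GFP_KD H3 replicate 1 (1.07, adjusted p = 0.188), GFP_KD H3 replicate 2 (0.97, adjusted p = 0.325) or either GFP_KD H3K23ac library (1.08, adjusted p = 0.108), which enters through the shared spread. Its adjusted p ranged from 4.8e-05 to 0.325 over 15 alternatives without a replicate block. Leaving out enok_KD H3K23ac replicate 1 or 2 gave 12 or 13 members, among 39 or 41 of 203 elements.

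At an unadjusted p under 0.05 there were 18 members, 12 higher and 6 lower, as compared with 28.6% of all elements. The H3 libraries did not overlap for 53 members, 30 higher and 23 lower, as compared with 66% of all elements (37.4% higher and 28.6% lower). The median H3 change was 0.01 over members and 0.03 over all elements. With total counts in place of TMM the median of all elements moved by −0.21, and 18 members passed, 1 higher and 17 lower, among 48 of 203 elements. The envelope relatives had a median of 0.31 with 12 of 14 above 0 and the mdg1 group one of 0.30, whereas gypsy2 to gypsy12 had −0.12, the mdg3 group −0.10 and Invader1 to Invader6 −0.05. DM297_I had 7106 and 10030 CPM of H3 in enok_KD, against 5559 and 4365 CPM in GFP_KD, without overlap (0.79 ± 0.24, edgeR adjusted p = 0.0954). QUASIMODO_I had 4434 and 6194 CPM in enok_KD, against 3662 and 2984 CPM in GFP_KD, also without overlap (0.68 ± 0.24, edgeR adjusted p = 0.133). The widest differences downwards were those of Gypsy6_LTR (−0.47), TRANSPAC_LTR (−0.41) and Invader5_I (−0.41), and none of these passed.

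For H3K23ac alone no member passed (0 of 81, with 0% of all elements) in edgeR's quasi-likelihood test. At an unadjusted p under 0.05 there were 14 members, 12 higher and 2 lower in enok_KD, as compared with 15.8% of all elements. DESeq2 called 1 member, DM412, among 4 of 203 elements, and limma voom called 0, with 1 of 203 elements. The libraries did not overlap for 35 members, 22 higher and 13 lower, as compared with 44.3% of all elements (30.5% higher and 13.8% lower). The median change was 0.13, equal to that of all elements, but with total counts in place of TMM the median of all elements moved by −0.16 and 24 members changed sign. Without enok_KD H3K23ac replicate 2, 4 members passed, all higher, among 10 of 203 elements.

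DM412 had 22347 and 24880 CPM of H3K23ac in enok_KD, against 15482 and 16418 CPM in GFP_KD, without overlap, and a fitted change of 0.57. Under DESeq2 the change was 0.52 (adjusted p = 0.0185), and the adjusted p ranged from 0.0185 to 0.761 over 15 alternatives without a replicate block. TIRANT_I had 2317 and 1862 CPM in enok_KD, against 1393 and 1415 CPM in GFP_KD (0.57), so that both Tirant parts had more H3K23ac in both enok_KD libraries. On the other side, ACCORD_I had 1056 and 1111 CPM in enok_KD, against 1478 and 1363 CPM in GFP_KD, also without overlap (−0.39 ± 0.15, edgeR adjusted p = 0.269). The mdg3 group had a median of −0.23 with 0 of 6 elements above 0, and the mdg1 group a median of 0.25.

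The internal part and the LTRs of a family were next compared within each library, as LTR reads per internal read, which needs no scaling between libraries. Because a count cannot be assigned to a copy, LTR and internal reads of a family may come from different copies. In enok_KD the LTR carried more H3K23ac per H3 than the internal part in 17 of 35 families and less in 4 (limma, Benjamini-Hochberg over 51 LTR families), as compared with 47.1% and 7.84% of all 51 (54.9% in either direction). In GFP_KD it carried more in 8 and less in 1, as compared with 23.5% and 3.92% (27.5% in either direction). The median log2 difference was 0.47 in enok_KD and 0.11 in GFP_KD. The count in enok_KD was 11 families without enok_KD H3 replicate 1 and 12 without enok_KD H3 replicate 2. In GFP_KD it was 3 or 4 when any GFP_KD library was left out, and 15 without either enok_KD H3K23ac library.

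Osvaldo and rover stood furthest out. In Osvaldo there were 0.296 and 0.523 LTR reads per internal read for H3K23ac, against 0.0358 and 0.062 for H3, in enok_KD, and 0.274 and 0.313 for H3K23ac, against 0.0342 and 0.0538 for H3, in GFP_KD. In rover there were 0.120 and 0.132 for H3K23ac, against 0.0168 and 0.0159 for H3, in enok_KD, and 0.127 and 0.140 for H3K23ac, against 0.0229 and 0.0264 for H3, in GFP_KD. In both families every H3K23ac library exceeded every H3 library, with log2 differences of 3.06 for Osvaldo and 2.94 for rover in enok_KD, and 2.77 and 2.44 in GFP_KD. Families with the opposite order in enok_KD were ACCORD2 (−0.69), TIRANT (−0.62), MDG1 (−0.57) and NOMAD (−0.53), and TIRANT had it in GFP_KD as well (−0.88). None of these 5 calls held when each library was left out in turn. Without enok_KD H3 replicate 1 the values in enok_KD were −0.57 for ACCORD2, −0.63 for TIRANT, −0.65 for MDG1 and −0.53 for NOMAD, and without enok_KD H3 replicate 2 they were −0.61 for TIRANT, −0.50 for MDG1 and −0.52 for NOMAD, none of which passed. The calls were also lost without enok_KD H3K23ac replicate 1 for ACCORD2 (−0.51) and MDG1 (−0.38), without enok_KD H3K23ac replicate 2 for NOMAD (−0.43), and, in GFP_KD, without replicate 2 of H3 (−0.70) or of H3K23ac (−0.86) for TIRANT. Those of Osvaldo and rover held without each of the 8 libraries. Many other calls of a higher LTR were lost without at least 1 library. In enok_KD these were blood, DM297, gypsy2, gypsy3, gypsy7, gypsy9, Invader1, Invader6, mdg3, Quasimodo and Stalker4, while gypsy6, Invader4, Stalker2 and Transpac held. In GFP_KD they were gypsy2, gypsy3, gypsy6, Invader3, Invader4 and Stalker2, that is, all but Osvaldo and rover. Across the 35 families, the log2 ratio of the LTR followed that of the internal part with r = 0.537 in enok_KD (Spearman 0.559) and r = 0.702 in GFP_KD (Spearman 0.679), where both parts share their libraries.

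**Figure D4:**
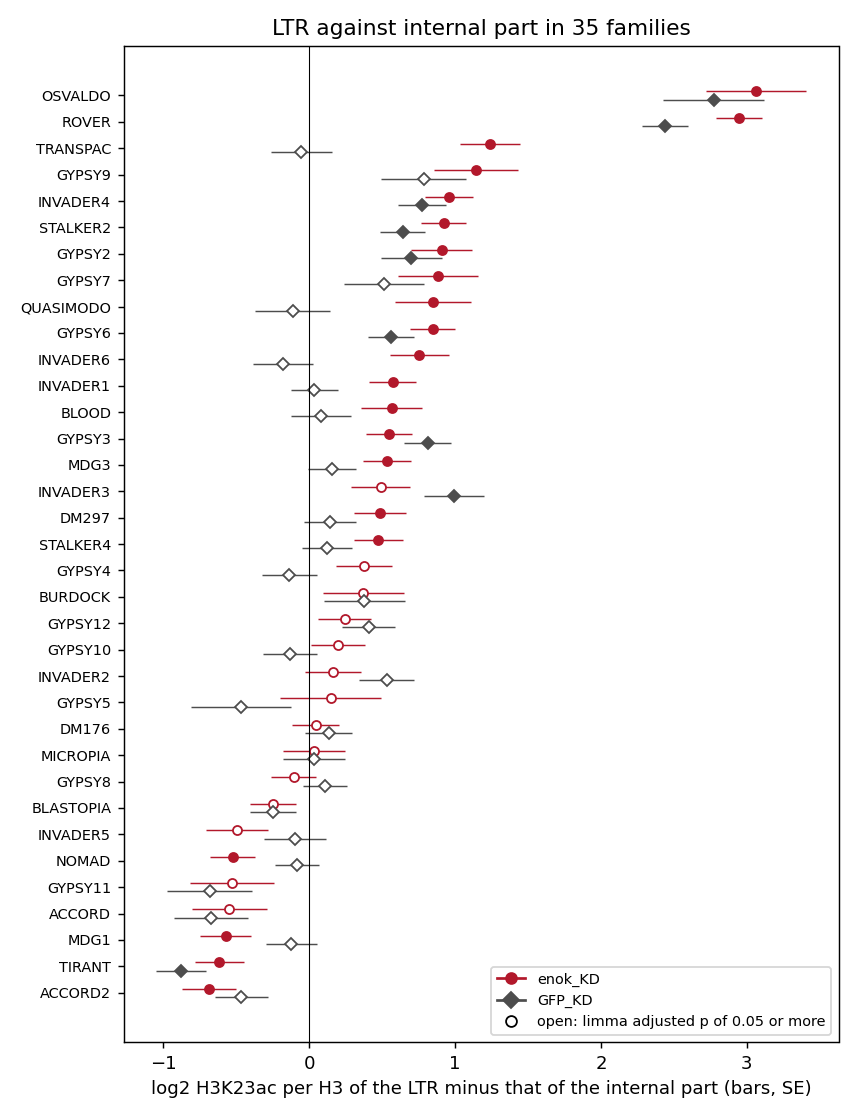
Log2 difference between LTR and internal part in H3K23ac per H3 for the 35 families with both parts, with enok_KD as circles above GFP_KD as diamonds in each row. Filled symbols passed an adjusted p of 0.05 and bars are the SE. Osvaldo and rover lie far to the right in both knockdowns, at 3.06 and 2.94 in enok_KD.

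Between the knockdowns, the LTR changed differently from the internal part in 1 of 35 families for H3K23ac per H3, as compared with 3.92% of all 51, and the median over families was 0.26, against 0.18 over all 51. This was Transpac, at 1.30 ± 0.29 (limma adjusted p = 0.0462). It remained called on leaving out enok_KD H3K23ac replicate 2, when 2 families passed, and 0 families passed when any of the other 7 libraries was left out (1.06 to 1.45 for Transpac). For H3 alone 3 families passed, 1 higher and 2 lower, as compared with 9.8% of all 51 (1.96% higher and 7.84% lower). In Transpac there were 0.0868 and 0.0763 LTR reads per internal H3 read in enok_KD, against 0.180 and 0.223 in GFP_KD (log2 difference −1.30, limma adjusted p = 0.00735), and rover fell too (−0.59, adjusted p = 0.0498). Nomad rose, with 0.405 and 0.406 in enok_KD, against 0.256 and 0.272 in GFP_KD (0.62, adjusted p = 0.0464). In these 3 families no enok_KD library overlapped a GFP_KD library. Quasimodo had 0.403 and 0.280 in enok_KD, against 0.563 and 0.692 in GFP_KD, and did not pass (−0.89, adjusted p = 0.060). Without enok_KD H3 replicate 2 or GFP_KD H3 replicate 2, 0 families passed for H3 (Transpac −1.21 and −1.15). Transpac alone passed, and rover (−0.48 to −0.69 over all left-out libraries) and nomad (0.58 to 0.67) did not, without enok_KD H3 replicate 1, GFP_KD H3 replicate 1 or either GFP_KD H3K23ac library, and 7 passed without either enok_KD H3K23ac library. Nomad also did not pass with edgeR's diffSpliceDGE (0.62). For H3K23ac alone 0 of 35 families passed in limma, with 0% of all 51 families, 5 at an unadjusted p under 0.05, and 0 by edgeR's diffSpliceDGE.

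**Figure D5:**
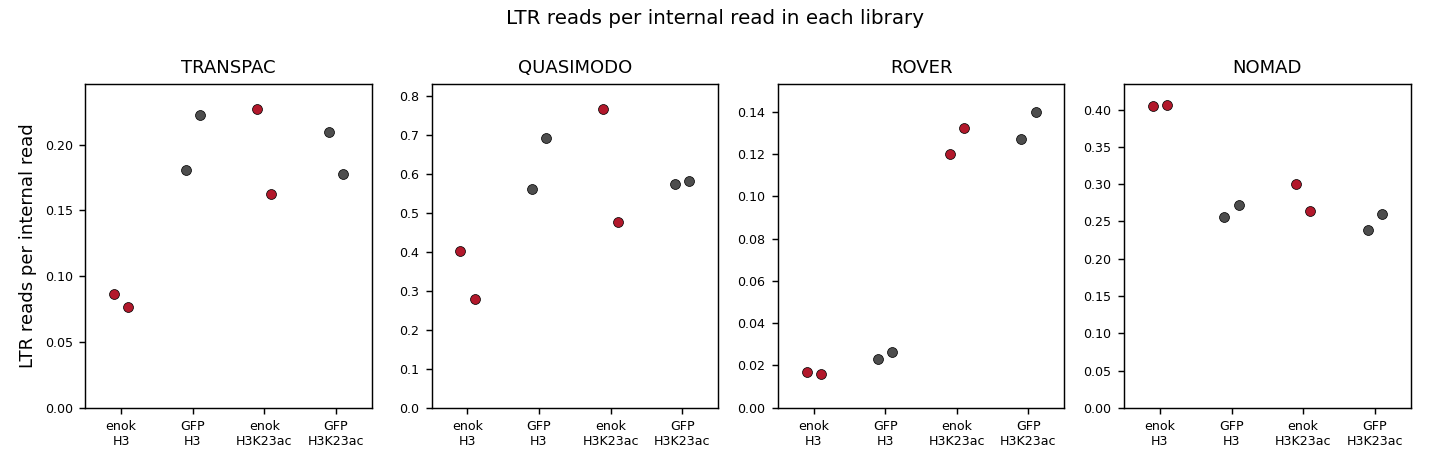
LTR reads per internal read in each library for Transpac, Quasimodo, rover and nomad, with enok_KD left of GFP_KD for each antibody. Points are the libraries (n = 2 per group), and the axes start at 0. For H3 the enok_KD libraries lie below those of GFP_KD in Transpac, Quasimodo and rover and above them in nomad, while the H3K23ac libraries lie closer together.

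In the study, Burdock, blood and HMS-Beagle were among the transposon families with more RNA in enok mutant germline clone ovaries than in wild type. Those were other libraries, from mutants and not from this knockdown. Here these families had no element past the threshold for the change in H3K23ac per H3 (median −0.02 over 5 elements). BURDOCK_I had 4556 and 4627 CPM of H3K23ac in enok_KD, against 5314 and 4946 CPM in GFP_KD, and 2737 and 3317 CPM of H3 in enok_KD, against 2799 and 2493 CPM in GFP_KD. H3K23ac was lower in both enok_KD libraries and H3 overlapped. BLOOD_I had 6867 and 7618 CPM of H3K23ac in enok_KD, against 5542 and 5975 CPM in GFP_KD, and 4848 and 4937 CPM of H3 in enok_KD, against 3890 and 3763 CPM in GFP_KD, with both antibodies higher in both enok_KD libraries. HMSBEAGLE_I had 11557 and 9803 CPM of H3K23ac in enok_KD, against 11722 and 11894 CPM in GFP_KD, and 10859 and 11079 CPM of H3 in enok_KD, against 11934 and 11971 CPM in GFP_KD. Within each knockdown the ratio was higher than that of the typical element for 4 of the 5, which were both parts of Burdock and of blood. Of all elements 32% were higher in enok_KD and 36% in GFP_KD. The medians of the 5 were 0.60 in enok_KD and 0.67 in GFP_KD, and HMSBEAGLE_I was at −0.04 ± 0.13 in enok_KD and −0.02 ± 0.13 in GFP_KD. The call of BURDOCK_LTR in enok_KD was lost without enok_KD H3K23ac replicate 2 (0.53, adjusted p = 0.150, range 0.000626 to 0.150 over 15 alternatives without a replicate block). Those of BLOOD_I (0.49, adjusted p = 0.0559, range 1.44e-05 to 0.0559) and BLOOD_LTR (0.45, adjusted p = 0.111, range 3.23e-05 to 0.111) in GFP_KD were lost without GFP_KD H3 replicate 1.

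Beside the rest of the table the members were not set apart by a test, and their values are given side by side. For the change in H3K23ac per H3 the median was 0.05 over the 81 members, 0.30 over the 11 gypsy, ZAM, Idefix, gtwin and Tabor elements, 0.08 over 25 Pao and Copia elements and 0.01 over 86 others. For the ratio in enok_KD these medians were −0.07, −0.04, −0.21 and 0.23, and in GFP_KD they were −0.11, −0.36, −0.43 and 0.45. In both knockdowns the 3 sets of LTR retrotransposons had a median below that of the 86 others. These others mix LINEs, DNA transposons, satellites and further rows, so the order does not set LTR retrotransposons apart from each class. They also hold T412LTR, a row of class LTR without Gypsy, Pao or Copia as its superfamily. It lay at 2.15 in enok_KD and 1.00 in GFP_KD, with a ratio change of 1.14 ± 0.26 (edgeR adjusted p = 0.129). LINEs lay on both sides, with R1_DM at −2.44 in enok_KD and −2.27 in GFP_KD, and I_DM at 1.03 and 1.22.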

How the data were processed

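Per the study's methods and the submitters' processing notes, the authors trimmed single-end reads (Trimmomatic is named), aligned them to dm3 with Bowtie2 2.2.1, allowed no mismatch and kept unique positions, and bedtools is also named. The deposited counts per element are raw whole numbers for each library. Duplicate handling, counting settings and the repeat annotation are not given in the sources used here. The piRNA cluster tables, used here for counts only, also hold the authors' own DESeq2 comparison, which was not used. Counts were tested with edgeR 4.0.16 in R 4.3.3 (TMM, 4 group means, 203 elements), LTR against internal parts with limma 3.58.1 (offset 0.5), and DESeq2 1.42.0 and voom were alternatives. SEs are those of the fits. With 2 replicates per group, which the study calls independent, p-values rest on spread shared across elements (biological coefficient of variation 0.129). The members and lists were chosen with earlier results of these data known. Elements named were those past the threshold where 10 or fewer passed, otherwise the 5 highest and 5 lowest with a mean of at least 100 counts, plus Burdock, blood and HMS-Beagle, the extremes of mean count and the families with the widest difference between parts. Other elements (Invader6_LTR, MDG3_LTR, DM412 in the ratio within a knockdown) were chosen after their values were seen or as examples of a group.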

Additional observations from a re-analysis of the deposited data

How the results depend on the processing

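Counts of members past the threshold kept within 1.5 times under the other size factors, factors from the cluster tables and no filter. The change in H3K23ac per H3 (0 members) gave 1 with DESeq2, 1 with voom and 0 to 7 on leaving out a library. The change in H3 (1) gave 18 with total counts, 0 with a mean of at least 100 counts, 6 with DESeq2, 7 with voom and 0 to 13 on leaving out a library. The change in H3K23ac (0) gave 1 with DESeq2 and 0 to 4 on leaving out a library. Ratios within a knockdown gave 40 to 50 members in enok_KD and 43 to 59 in GFP_KD on leaving out a library.

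Between LTR and internal part, leaving out a library gave 0 to 2 families for the ratio, 0 to 7 for H3, 11 to 19 within enok_KD and 3 to 15 within GFP_KD, and a mean of at least 100 counts gave 6 for H3. The difference in the members' share of H3 reads (−0.787 percentage points) became 0.234 without satellite, RNA and unknown elements and −1.64 to 0.0707 on leaving out a library, and that of H3K23ac (−0.125) −0.667 to 0.416.

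The labels do not say whether libraries of the same replicate number share a chromatin preparation. Deviations of same-numbered H3 and H3K23ac libraries correlated at 0.697 in enok_KD and −0.0128 in GFP_KD over elements, and those of H3 between knockdowns at −0.483. A replicate block shared by all groups left 0 members for the ratio change, 1 for H3 and 0 for H3K23ac, and 0 families for the LTR against internal ratio change and 1 for H3. A replicate block within each knockdown gave 26 members for the ratio change, among 65 of 203 elements. A block with numbers crossed between knockdowns, chosen after seeing the data, gave 4, 9 and 2 members, among 12, 33 and 10 of 203 elements, and 2 and 5 families.

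Of the elements named by the rule, those in Burdock, blood and HMS-Beagle had values that changed sign. Over all members, 11 changed sign for H3 and 24 for H3K23ac with total counts. The ratio change of BLOOD_I became 0.0187 with DESeq2 size factors, 0.0254 with total counts, 0.0193 with DESeq2 and −0.100 to 0.0494 on leaving out a library, that of HMSBEAGLE_I 0.0178, 0.0215, 0.0174 and −0.145 to 0.0929, and that of BURDOCK_LTR −0.789 to 0.106 on leaving out a library. The H3 change of BURDOCK_I became −0.0069 with total counts and −0.0321 to 0.326 on leaving out a library, and the H3K23ac change of BURDOCK_LTR −0.217 to 0.677. The ratio of HMSBEAGLE_I became 0.716 in enok_KD and 0.772 in GFP_KD with factors from the cluster tables, and −0.162 to 0.0753 in enok_KD on leaving out a library. The cause was not tested.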

Other observations

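Some members in none of the family groups also differed in H3K23ac per H3 within a knockdown, and they were chosen after their values were seen. ACCORD2_I, the internal part of accord2, was lower than the typical element at −0.93 ± 0.14 in enok_KD and −1.29 ± 0.14 in GFP_KD, and ACCORD2_LTR at −1.64 ± 0.23 in enok_KD and −1.78 ± 0.19 in GFP_KD (SE; edgeR adjusted p = 0.000561, 0.000104, 0.000369 and 0.000104). DMLTR5 was at −0.0028 ± 0.20 in enok_KD and −0.35 ± 0.20 in GFP_KD, and did not pass in either. With factors from the cluster tables the median of all elements moved up by 0.76 in enok_KD and 0.79 in GFP_KD, which exceeds the distance of DMLTR5 from 0. For ACCORD2_I in enok_KD (−0.93) the shift is most of the distance from 0, so that lower holds there relative to the typical element. Under those factors 7 of all members passed as lower in enok_KD.

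Some elements differed between the enok_KD replicates in both antibodies. TV1I had 244 and 492 CPM of H3K23ac in enok_KD replicates 1 and 2, against 352 and 383 CPM in GFP_KD replicates 1 and 2, and 529 and 655 CPM of H3 in enok_KD, against 339 and 295 CPM in GFP_KD. DM297_I, QUASIMODO_I, TOM_I and TRANSPAC_I also had more of both antibodies in enok_KD replicate 2. Gypsy8_I, Gypsy2_I, NOMAD_I and OSVALDO_I had more of both in replicate 1. The H3K23ac difference between the enok_KD replicates, replicate 1 minus 2 on the log2 scale, was −1.01 for TV1I and 0.84 for OSVALDO_I. These elements were chosen after their values were seen.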
